A study of Homo sapiens with 14 samples.

Results

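The 6 tubulin genes described here are TUBA1A, TUBA1B and TUBA1C (alpha-tubulins), TUBB and TUBB4B (beta-tubulins) and TUBG1 (gamma-tubulin). They were chosen by name, as genes of one protein family. No measured value entered the rule, but earlier results of these data were known. Their 33 transcripts are part of 20512 scored in at least 1 of the 4 profiles of the study, which come from 6778 genes by the GENCODE release 44 names. Of the 33, 32 were present in all 4 profiles, and the remaining one, a TUBG1 transcript with a retained intron, was present in icSHAPE in vivo alone.

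The structure of RNA was probed in K562, an established human erythroleukemia cell line, with a pair of reagents. In icSHAPE, NAI-N3 acylates the 2′-hydroxyl of flexible nucleotides, and in icLASER, NAz-N3 activated by UV light marks the C8 of solvent-exposed purines. Each was applied to living cells (in vivo) and to purified, refolded RNA (in vitro). The labels list 14 libraries: 3 icSHAPE in vivo and 2 in vitro, all with 100 mM NAI-N3 for 5 min, 3 DMSO controls, 2 icLASER in vivo and 2 in vitro, all with a 1 M stock of NAz-N3 and 10 min of UV, and 2 icLASER controls without UV. All come from the one cell line with no genetic change or drug named, and RNA was selected for poly(A) tails. The authors pooled each reagent and condition, with its controls, into a single profile. A profile is therefore 1 sample, no difference below has a replicate check or a p-value, and the number of reads behind a score is unknown. The profiles held 12256 to 16648 transcripts each, and the lowest RPKM (reads scaled by transcript length and library size) was 5.01. Of 12 erythroid markers listed for K562, 11 were present, led by HBG1 (fetal globin) at a mean RPKM of 1936, and 10 of them were in all 4 profiles. Of 10 markers of other cell types, EPCAM and KRT18 (epithelial genes) were present at mean RPKM of 23.8 and 24.7, and the other 8, of T cells, B cells, hepatocytes and fibroblasts, had no row in the tables analysed here. In a bulk sample, fewer cells of a type and less RNA per cell cannot be told apart.

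Alpha- and beta-tubulin join into the dimers from which microtubules are built, and gamma-tubulin, in a ring complex, starts new microtubules. Cells set the amount of alpha- and beta-tubulin mRNA by reading its product: when free dimers are in excess, the first amino acids of a tubulin emerging from the ribosome are recognised by TTC5, which through SCAPER brings the CCR4-NOT deadenylase to the mRNA being translated. The signal is carried by the amino-terminal residues, methionine-arginine-glutamate-cysteine in alpha-tubulin and methionine-arginine-glutamate-isoleucine in beta-tubulin, so the element in the mRNA is the first 4 codons.

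Those codons are shown for each MANE Select transcript, the single reference transcript of a gene, because the comparison of paralogs turns on them. Each line runs 5′ to 3′ from 6 nucleotides before the start codon to nucleotide 24 of the coding sequence (RefSeq and Ensembl agree on MANE Select models, here read from the GENCODE release 44 transcripts on GRCh38), and the first 12 coding nucleotides are in capitals.
TUBA1A: gcaaccAUGCGUGAGUGCaucuccauccac
TUBA1B: gccacuAUGCGUGAGUGCaucuccauccac
TUBA1C: cuagucAUGCGUGAGUGCaucuccauccac
TUBB: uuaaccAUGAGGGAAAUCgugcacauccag
TUBB4B: gccaucAUGAGGGAAAUCgugcacuugcag
TUBG1: ggagcgAUGCCGAGGGAAaucaucacccua

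The 3 alpha-tubulins had the same 12 nucleotides, as did the 2 beta-tubulins. TUBG1 has 1 more codon after the start codon, and its nucleotides 7 to 15 repeat nucleotides 4 to 12 of the beta-tubulins (AGGGAAAUC). In the alpha-tubulin genes, which lie on chromosome 12, the start codon is the last 3 nucleotides of exon 1 and the other 9 open exon 2. For TUBA1A these pieces are chr12:49188977-49188979 and chr12:49186825-49186833 on the minus strand, for TUBA1B chr12:49131298-49131300 and chr12:49129714-49129722 on the minus strand, and for TUBA1C chr12:49265182-49265184 and chr12:49269465-49269473 on the plus strand. In the other genes all 12 lie in exon 1 on the plus strand, at chr6:30720507-30720518 for TUBB, chr9:137241361-137241372 for TUBB4B and chr17:42609738-42609749 for TUBG1.

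TUBB was the most abundant of the 6 mRNAs and TUBG1 the least. RPKM of the highest transcript of each gene is given in the order icSHAPE in vitro, icSHAPE in vivo, icLASER in vitro, icLASER in vivo. TUBB had 214, 269, 218 and 177. TUBA1B had 134, 171, 175 and 163. The next was TUBA1C with 64.5, 91.8, 94.3 and 79.2, for a transcript annotated with a retained intron, and its MANE Select transcript had 41.0, 53.8, 51.3 and 43.4. TUBA1A had 49.5, 66.2, 65.7 and 59.8, and its MANE Select transcript had 42.5, 55.1, 55.5 and 55.7. TUBB4B had 37.2, 21.4, 68.1 and 80.8. For TUBG1 the values were 14.4, 20.7, 19.8 and 20.1. TUBB ranked between 193 and 324 among 3727 genes with a transcript in all profiles, and TUBG1 between 1944 and 2471. Among the highest transcripts the order TUBB, TUBA1B, TUBA1C, TUBA1A held in all 4 profiles and TUBG1 came last in each. Between MANE Select transcripts TUBA1A was instead above TUBA1C in all 4 profiles. TUBB4B moved from just above TUBG1 in icSHAPE in vivo (21.4 against 20.7) to above TUBA1C in icLASER in vivo (80.8 against 79.2). Without values per library, it cannot be said whether such neighbours differ. Reads from stretches that the alpha-tubulins share also cannot be assigned to a gene.

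The in vivo over in vitro ratio of RPKM ran in opposite directions with the reagent for most members. With icSHAPE, 5 of 6 mRNAs were higher in vivo, by 1.26 times for TUBB, 1.27 for TUBA1B, 1.34 for TUBA1A, 1.42 for TUBA1C and 1.44 for TUBG1, where the median of 11681 other transcripts was 1.09. TUBB4B was the exception at 0.576 times, or -0.80 on the log2 scale, and 3.38% of the others had a lower ratio. Both of its transcripts were lower. It was the only member past 1.5 times in that direction, a change seen in 4.72% of the other transcripts. With icLASER the pattern was reversed: TUBB (0.811), TUBA1C (0.839), TUBA1A (0.910) and TUBA1B (0.930) were lower in vivo, TUBG1 was at 1.01, and TUBB4B was higher at 1.19, against a median of 1.08 over 13777 other transcripts. No member was higher by 1.5 times or more, as 14.0% of the other transcripts were. For TUBA1A the direction depended on the transcript, since the MANE Select model had a ratio of 1.00 with icLASER. Which libraries the RPKM of a profile counts is not given in the sources used here, and RNA amount, library preparation and enrichment cannot be told apart in it.

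Scores over the first 4 codons separated the beta-tubulins from TUBA1B and TUBA1C in every profile. The score compares reads stopping at a nucleotide in the probed and control libraries and runs from 0 (unreactive) to 1. Values are means over the 12 nucleotides of a representative coding transcript. TUBB, the main beta-tubulin of dividing cells, had a mean of 0.551 in vitro and 0.378 in vivo with icSHAPE. With icLASER its means were 0.774 and 0.453. TUBB4B, a broadly expressed beta-tubulin, had 0.672 and 0.436 with icSHAPE and 0.440 and 0.399 with icLASER. These were high values. The in vitro mean of TUBB with icLASER was above that of 99.5% of 4408 other coding transcripts, from 1766 genes. The in vitro mean of TUBB4B with icSHAPE was above that of 98.1% of 3787, from 1480 genes. Transcripts of the same gene were counted separately in these and the other comparisons with other transcripts. Both genes had higher means in the element than in the rest of the coding sequence in all 4 profiles, with an excess of 0.19 to 0.61 for TUBB and 0.21 to 0.51 for TUBB4B, where the median excess over other transcripts was 0.010 to 0.055.

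The alpha-tubulin element was close to unreactive in 2 of the 3 genes that share it. TUBA1B, the most abundant alpha-tubulin mRNA, had means of 0.029 in vitro and 0.035 in vivo with icSHAPE. Its icLASER means were 0.027 and 0.031. TUBA1C had 0.086 and 0.066 with icSHAPE and 0.030 and 0.11 with icLASER. None of the 12 nucleotides reached 0.5 in either gene in any profile. TUBA1A, the alpha-tubulin known for its role in developing neurons, had far higher means over the identical letters, of 0.324 and 0.493 with icSHAPE and 0.615 and 0.519 with icLASER. That transcript of TUBA1A takes its start codon from another first exon, and the MANE Select transcript had 0.154 and 0.245 with icSHAPE and 0.362 and 0.261 with icLASER. Over the 4 TUBA1A transcripts scored at all 12 nucleotides (1 more was scored at 10), the icLASER in vitro mean ranged from 0.227 to 0.615, where no transcript of TUBA1B or TUBA1C was above 0.076. The rest of the coding sequence did not share the gap, with means of 0.137 to 0.172 for MANE Select TUBA1A and 0.154 to 0.188 for TUBA1B. The pipeline's default settings scale scores within each transcript, and reads from these identical stretches cannot be assigned to a gene. The part of either in the gap was not tested.

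TUBG1, whose protein does not begin with the tubulin tetrapeptides, was between the beta-tubulins and TUBA1B in the mean over its first 4 codons in all 4 profiles. Its representative transcript had means of 0.148 and 0.259 with icSHAPE and 0.278 and 0.302 with icLASER, and the longer MANE Select transcript had 0.203 and 0.194 with icSHAPE and 0.406 and 0.16 with icLASER. Against other coding transcripts these were at percentiles from 43.9 to 64.1 with icSHAPE and from 45.1 to 84.7 with icLASER. Over the 9 letters AGGGAAAUC that TUBG1 shares with the beta-tubulins, the MANE Select transcript of TUBG1 had 0.341 and 0.480 with icSHAPE, against 0.443 and 0.413 for TUBB and 0.656 and 0.408 for TUBB4B. With icLASER the same letters gave 0.502 and 0.307 in TUBG1, 0.732 and 0.458 in TUBB and 0.456 and 0.421 in TUBB4B. The range over the 3 genes was narrower for the shared letters than for the first 4 codons in each profile on MANE Select transcripts, but not for icLASER in vivo when the representative TUBG1 transcript (0.285) was used.

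**Figure D1:**
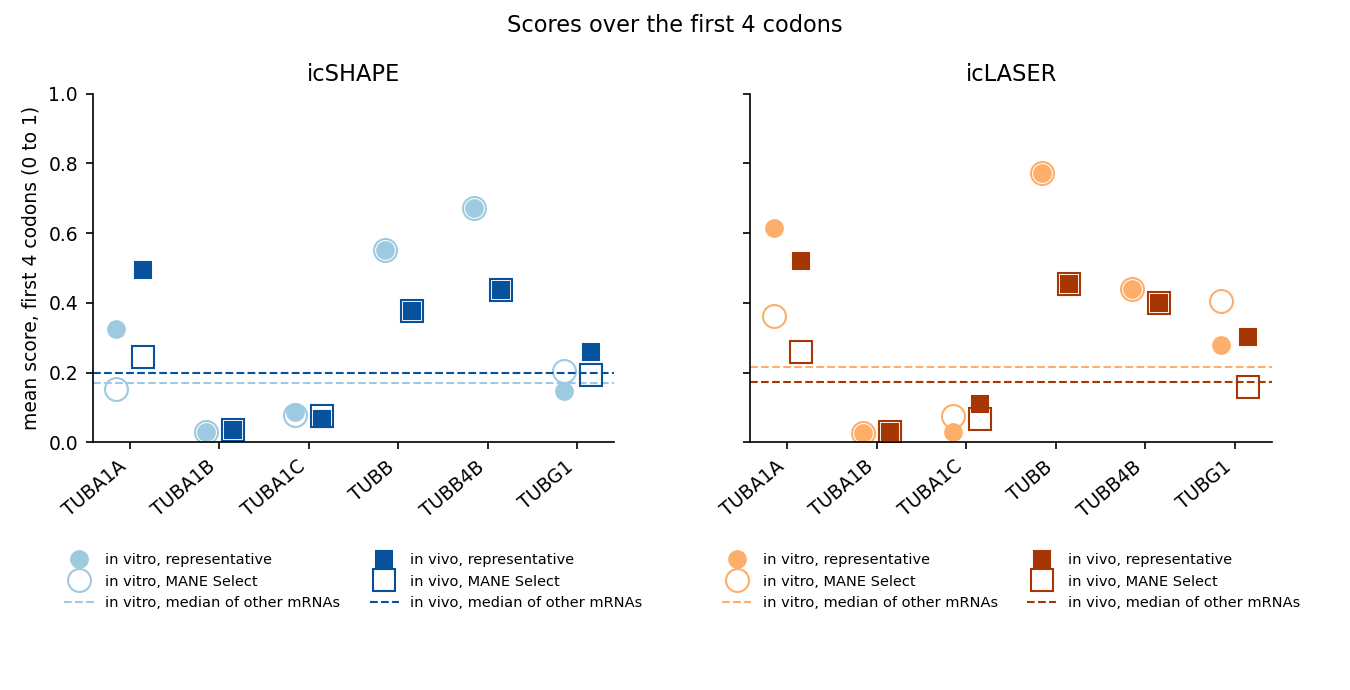
Mean score (0 to 1) over the first 4 codons of each gene, circles in vitro and squares in vivo, filled for the representative transcript and open for MANE Select, with dashed lines at the medians of other coding transcripts. The 2 beta-tubulins lie above every dashed line and TUBA1B and TUBA1C below, while both TUBA1A transcripts lie well above TUBA1B and TUBA1C.

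Over the first 4 codons both beta-tubulins had lower means in cells than in refolded RNA with both reagents. Subtracting in vitro from in vivo gave -0.173 for TUBB and -0.235 for TUBB4B with icSHAPE, where the median of other transcripts was 0.017. Both passed the limit of 0.1 set for a call, so 2 of 6 members were lower, against 13.7% of the other transcripts. On the higher side there were also 2 of 6, TUBA1A (0.169) and TUBG1 (0.111), against 21.3%. The TUBG1 transcript counted here had an RPKM of only 7.81 with icSHAPE in vitro, where the lowest of that profile was 5.13. On MANE Select transcripts no member was higher by 0.1 or more with icSHAPE. With icLASER, TUBB was lower by more (-0.320, beyond all but 2.29% of the other transcripts) and TUBB4B by less (-0.041), although a further TUBB4B transcript was at -0.130 with icLASER and -0.128 with icSHAPE. Over the first 8 codons the differences were smaller, at -0.080 for TUBB and -0.134 for TUBB4B with icSHAPE and -0.226 for TUBB with icLASER, and TUBB4B with icLASER was higher in vivo, at 0.034. TUBB thus passed the limit of 0.1 with icSHAPE in the first 4 codons but not over 8. With icLASER over the first 4 codons, TUBB was the 1 member of 6 called lower, where 26.3% of the others were. The median of the other transcripts was itself -0.030. None of the 6 was higher by 0.1 or more with icLASER, against 8.03%. Over all 6 the median difference was -0.007 with icSHAPE and -0.019 with icLASER, and 3 of 6 were lower with each reagent. Of the others, 41.0% were lower with icSHAPE and 62.9% with icLASER. On MANE Select transcripts the icLASER count was larger, with 5 of 6 lower and 3 of 6 lower by 0.1 or more (TUBB, TUBG1 and TUBA1A) and a median of -0.072. The direction in TUBG1 and TUBA1A depended on the transcript. TUBG1 was at 0.111 with icSHAPE and 0.024 with icLASER in its representative transcript, and at -0.010 and -0.246 in the MANE Select one. For TUBA1A the MANE Select transcript had the signs of the representative one, at 0.091 and -0.102. Its other 3 transcripts with the element were higher in vivo with icLASER, at 0.128, 0.166 and 0.216, and of these one was lower with icSHAPE, at -0.037.

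Single nucleotides show where the beta-tubulin difference lay. In TUBB with icSHAPE it lay mostly in the start codon. The icSHAPE scores of its A, U and G were 1.00, 0.626 and 1.00 in vitro and 0.386, 0.092 and 0.339 in vivo, a mean of 0.875 against 0.272. The difference of -0.603 was below that of all but 0.448% of 3792 other transcripts. The 9 letters after the start codon were nearly level, at 0.443 and 0.413. The A 3 nucleotides before the start codon, in the position that favours initiation, went from 0.867 to 0.134 with icSHAPE and from 1.00 to 0.1 with icLASER. By contrast nucleotides 9 and 10, the last A of the glutamate codon and the first of the isoleucine codon, scored 1.00 in TUBB in all 4 profiles. In TUBB4B the same pair scored 1.00 in both icSHAPE profiles and 0.733 to 0.935 with icLASER. With icLASER the difference in TUBB was not confined to the start codon, since the 9 letters after it went from 0.732 to 0.458. In TUBB4B with icSHAPE those 9 letters went from 0.656 to 0.408. The TUBB4B start codon differed less than that of TUBB, with means of 0.720 and 0.521 for icSHAPE and 0.394 and 0.334 for icLASER. All 6 MANE Select models had lower start codon means in vivo with icLASER, as did 61.3% of other transcripts. Their differences ran from -0.46 in TUBB to -0.013 in TUBA1B. With icSHAPE 5 of 6 were lower, against 40.3% of other transcripts, and TUBA1A was at 0.028. The median of other transcripts was -0.041 with icLASER and 0.010 with icSHAPE.

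The letter just before the start codon stood out in several members and in other mRNAs. Over other coding transcripts the mean score there was 0.564 and 0.608 with icSHAPE, in vitro and in vivo, compared with 0.173 and 0.151 one nucleotide upstream. MANE Select TUBA1A had 1.00 and 1.00 at this nucleotide, TUBA1C 1.00 and 0.799, and TUBB 1.00 and 0.607. TUBB4B had 0.811 in vitro but 0.025 in vivo. TUBA1B, at 0.246 and 0.256, and TUBG1, at 0 and 0.124, were lower. After the element, nucleotide 19 of the alpha-tubulins, an A, scored 0.755 and 0.597 in TUBA1C and 0.572 and 0.794 in TUBA1A with icSHAPE, and 0.142 and 0.243 in TUBA1B.

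**Figure D2:**
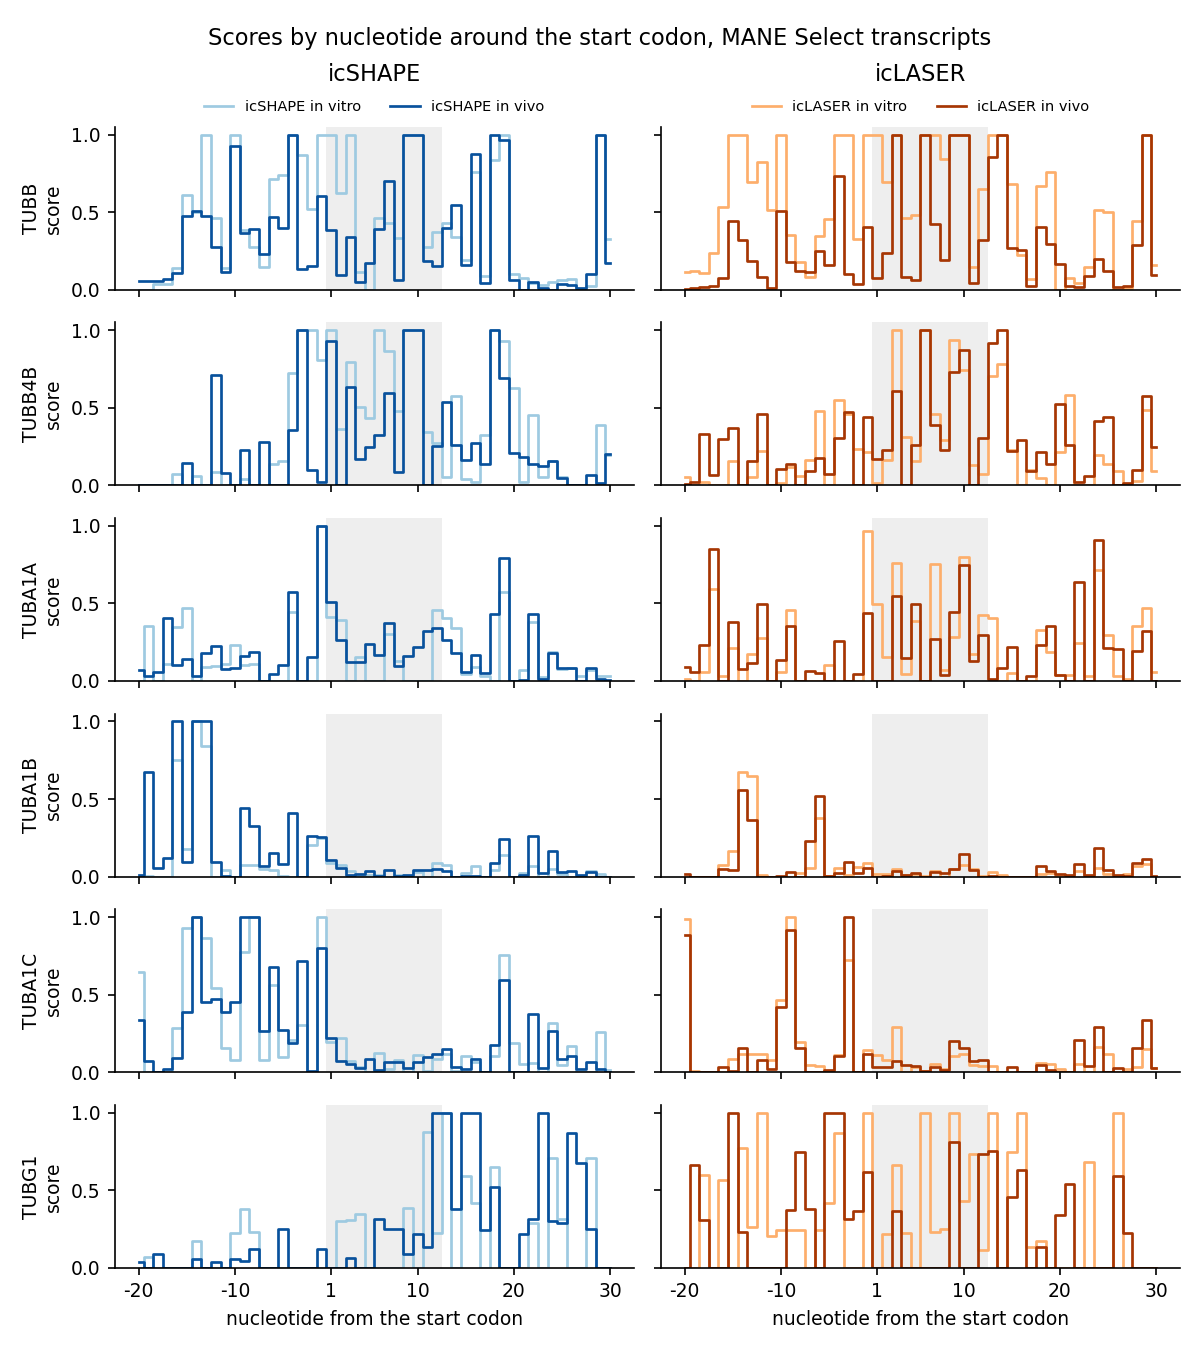
Score (0 to 1) at each nucleotide from 20 before to 30 after the start of the coding sequence in the MANE Select transcripts, with icSHAPE on the left, icLASER on the right, pale lines in vitro, dark lines in vivo and the first 4 codons shaded. TUBB reaches 1.00 at nucleotides 9 and 10 in every profile, and TUBA1B stays at or below 0.146 throughout the shaded codons.

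Other mRNAs whose coding sequence begins AUGAGG, and so encode methionine-arginine like the beta-tubulins, had medians at or below those of all other transcripts (0.170 and 0.199 with icSHAPE, 0.217 and 0.172 with icLASER). With icSHAPE, 45 such transcripts of 20 genes had a median of 0.168 in vitro and 0.159 in vivo, and with icLASER 47 transcripts of 23 genes had 0.184 and 0.137. The 3 of highest RPKM were RPL19 (a ribosomal protein), APOC1 (an apolipoprotein) and GSTO1 (a glutathione transferase). Their icSHAPE means were 0.590 and 0.641 for RPL19, 0.168 and 0.162 for APOC1 and 0.178 and 0.114 for GSTO1. RPL19 was thus as high as the beta-tubulins with icSHAPE and was lower in vivo with icLASER, 0.428 against 0.624. Among other tubulin genes, TUBB6 (a beta-tubulin) had 1 transcript with its first codons, AUGAGGGAGAUC, scored in all 4 profiles. Its means were 0.25 in vitro and 0.439 in vivo with icSHAPE and 0.297 and 0.417 with icLASER, higher in vivo with both, opposite to TUBB and TUBB4B. A TUBB6 transcript with icLASER scores alone went the other way, from 0.444 to 0.130.

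Among the 5′ UTR, coding sequence and 3′ UTR, the largest median difference between cells and refolded RNA on MANE Select transcripts was in the 3′ UTR with icLASER. Region means are given for MANE Select transcripts, since the representative transcripts of TUBA1A and TUBG1 hold too little 3′ UTR. TUBA1A was at 0.031 in vitro and 0.245 in vivo, TUBA1B at 0.104 and 0.281, TUBG1 at 0.077 and 0.205 and TUBB4B at 0.067 and 0.183. TUBB, at 0.162 and 0.211, and TUBA1C, at 0.078 and 0.103, were higher in vivo by less. All 6 were thus higher in vivo, as were 84.4% of 4123 other transcripts. By at least 0.1, 4 of 6 were higher, against 17.1% of the others. The median difference of the 6 was 0.122 and that of the other transcripts 0.042, in the same direction. TUBA1A was above 98.4% of the other transcripts in this difference and TUBA1B above 96.8%. With icSHAPE all 6 were also higher in the 3′ UTR in vivo, by 0.002 to 0.064, where 80.5% of the others were higher. None was higher by 0.1 or more, against 3.68% of the others. Over the 4 representative transcripts with at least 30 scored positions the icLASER median was 0.082, with TUBA1C at -0.100 in a transcript of 696 nucleotides with a coding sequence of 393, against 1350 in the MANE Select one. Only 0.194% of other transcripts had a lower difference.

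The 5′ UTR moved the other way with icLASER in most members, as it did in 73.3% of other transcripts. TUBB was at 0.366 in vitro and 0.195 in vivo, TUBA1C at 0.187 and 0.102 and TUBA1B at 0.223 and 0.149. TUBB4B (0.146 and 0.114) and TUBG1 (0.403 and 0.392) were lower in vivo by less, and TUBA1A was higher, at 0.106 and 0.163. TUBB alone was lower by 0.1 or more, 1 of 6, against 17.7% of other transcripts, and its difference of -0.171 was below that of all but 4.76% of them. The representative transcripts differed from this. In them TUBA1C was higher in vivo, at 0.158 and 0.261, and TUBG1 was lower by more, at 0.339 and 0.191. There 2 of 6 were lower by 0.1 or more and 1 was higher, against 2.34% of other transcripts for the latter. With icSHAPE no 5′ UTR was lower by 0.1, against 3.57%, and the 6 differences ran from -0.029 to 0.053. Coding sequences as a whole differed little between conditions on MANE Select transcripts. Their differences ran from -0.011 to 0.022 with icSHAPE, all below the median of other transcripts of 0.025. With icLASER they ran from -0.018 to 0.016, around the median of 0.001. In the representative transcripts, TUBA1C with icLASER went from 0.118 to 0.202, a difference above that of 96.9% of other transcripts. TUBG1 with icSHAPE went from 0.138 to 0.188 there.

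**Figure D3:**
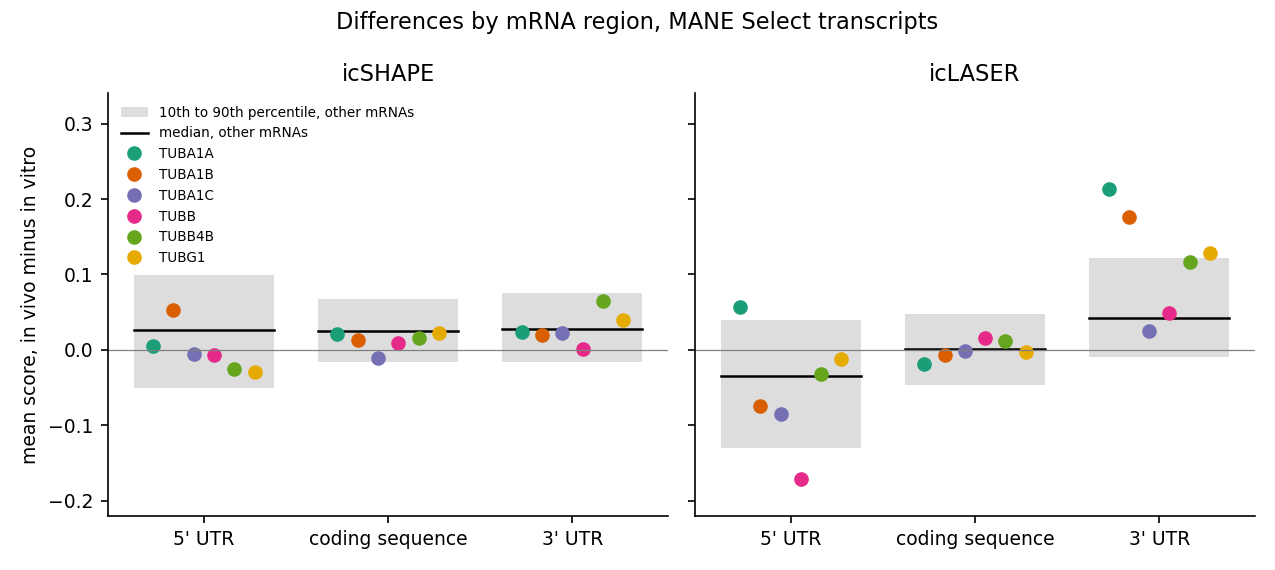
In vivo minus in vitro difference of the mean score in each region of the 6 MANE Select transcripts (points), with the median (line) and the 10th to 90th percentile (grey) of other coding transcripts. With icLASER all 6 points lie above 0 in the 3′ UTR, as do 84.4% of other transcripts. TUBA1A (0.214), TUBA1B (0.176) and TUBG1 (0.128) lie above the grey band.

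At the stop codon the icLASER means were higher in vivo in all 6 MANE Select models, against 51.7% of other transcripts. By 0.1 or more 4 of 6 were higher, against 26.5%. The largest differences were in TUBA1A (0.043 and 0.280), TUBA1C (0.056 and 0.278), TUBG1 (0.122 and 0.295) and TUBA1B (0.121 and 0.262). The smallest was in TUBB, at 0.019 and 0.021. Of the 5 representative transcripts with an annotated stop codon, 4 were higher in vivo, 2 of them by 0.1 or more. TUBA1C was lower there, at 0.333 and 0, and 3.50% of other transcripts had a lower difference. Each is a mean over 3 nucleotides, and over other transcripts the median difference was 0.007. The 30-nucleotide windows with the largest icLASER gain in vivo also fell late in the mRNA. They lay in the 3′ UTR for TUBB (0.053 and 0.589), TUBA1B (0.132 and 0.578) and TUBG1 (0.053 and 0.293), across the end of the coding sequence for TUBA1A (0.072 and 0.374), and in the last part of the coding sequence for TUBB4B and TUBA1C, 1278 and 1297 nucleotides from its start. These windows were picked as extremes among 1504 to 2712 per gene, so their values describe only where the difference peaked.

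Strongly reactive nucleotides, those scoring at least 0.5, made up shares of the MANE Select coding sequences that differed most between members with icSHAPE in vitro. With icSHAPE in vitro the share ran from 8.997% in TUBA1A (95% Wilson interval 7.59 to 10.6) to 15.1% in TUBA1C (13.3 to 17.1). These intervals do not overlap, but the order depended on the transcript. In the representative transcripts TUBA1A was at 11.9% (10.3 to 13.7) and TUBA1C at 9.41% (6.91 to 12.7), with overlapping intervals. With icSHAPE in vivo it ran from 10.7% in TUBA1A (9.16 to 12.5) to 13.9% in TUBG1 (12.1 to 15.8). The icLASER shares ran from 9.59% in TUBA1B (8.13 to 11.3) to 11.7% in TUBB4B (10.1 to 13.6) in vitro. In vivo they ran from 9.29% in TUBA1B (7.86 to 10.95) to 12.7% in TUBB4B (11.03 to 14.6), and these intervals do not overlap either. The intervals cover the counting of positions only. Over all scored nucleotides of each profile the share was 10.98% to 11.9%. By base, icLASER scored G highest in every member, with means of 0.243 to 0.408. Means were 0.096 to 0.191 for A, 0.082 to 0.142 for U and 0.044 to 0.097 for C. In vivo, U was above A in TUBA1A (0.130 against 0.123) and TUBA1C (0.101 against 0.096). In icSHAPE A led, at 0.126 to 0.240, apart from TUBA1A and TUBA1C in vitro, where U did, and C was the lowest or next to lowest, at 0.093 to 0.164.

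The profiles of the beta-tubulins and TUBA1B were among the more alike between conditions. Pearson's r across positions within a transcript, a description of shared signal and not a test, was 0.765 in TUBA1B, 0.753 in TUBB and 0.702 in TUBB4B between the 2 icSHAPE profiles, where the median of 11467 other transcripts was 0.498. The value was 0.679 in TUBA1A, 0.586 in TUBG1 and 0.580 in TUBA1C. Between the icLASER profiles r was 0.796 in TUBA1B, 0.742 in TUBB4B, 0.721 in TUBB and 0.680 in TUBA1A, against a median of 0.562, with TUBG1 at 0.613 and TUBA1C at 0.509. Between reagents r was lower, from 0.347 in TUBA1C to 0.518 in TUBA1B in vitro and from 0.290 in TUBA1C to 0.488 in TUBB4B in vivo. Positions of a transcript share its depth and base composition.

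Paralogs share much of these sequences, and reads from the shared stretches belong to no one gene. Of all 30-nucleotide stretches of the MANE Select transcript, 72.8% in TUBA1B, 59.8% in TUBA1A, 40.3% in TUBG1, 38.7% in TUBA1C, 34.6% in TUBB and 21.6% in TUBB4B occur in a transcript of another gene. At 75 nucleotides the shares were 48.4%, 31.2%, 20.4%, 18.1%, 8.97% and 5.64%. The 3 alpha-tubulin coding sequences are identical from the start codon for 140 to 164 nucleotides, and every 75-nucleotide stretch that begins in their first 4 codons is shared. TUBB and TUBB4B are identical for the first 18 nucleotides only, and no 75-nucleotide stretch beginning in their first 4 codons is shared. At 30 nucleotides 33.3% of the stretches beginning in the first 4 codons of TUBB are shared with another gene, and none of those of TUBB4B. The main partners were TUBA1A, TUBA1B and TUBA1C for each other, the pseudogene TUBBP1 for TUBB, TUBBP5 among others for TUBB4B, and TUBG2 for TUBG1. TUBG2 had no row in the tables analysed here. The pseudogenes TUBAP2 and TUBBP2 were listed with RPKM of 27.5 to 38.5 and 22.8 to 39.5 in the 4 profiles.

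Where 2 alpha-tubulins have the same base, their scores were correlated more at positions that open an identical run of at least 30 nucleotides than at the other identical bases, which include the last 29 bases of each such run. For TUBA1B and TUBA1C with icSHAPE in vivo, r was 0.910 over 804 positions that open such a run and 0.766 over the other 506. TUBA1A and TUBA1B gave 0.765 over 809 positions and 0.544 over 509. The same order held in all 12 comparisons of the 3 alpha-tubulins over the 4 profiles. In TUBB and TUBB4B only 12 of 1125 identical bases open such a run, and r was 0.499 to 0.631 over the other 1113. How much of the likeness comes from shared reads was not tested.

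Few other genes of tubulin biology were listed in the profiles. Of 15 other tubulin genes 3 were present: TUBB2A at a mean RPKM of 18.2, TUBB2B at 16.4 and TUBB6 at 15.5. TUBB2A and TUBB2B were higher in vivo with icLASER, by 0.58 and 0.72 on the log2 scale, and by 0.15 and 0.24 with icSHAPE, and TUBB6 followed TUBB with 0.33 for icSHAPE and -0.33 for icLASER. Of 8 folding cofactors 3 were in all 4 profiles, highest TBCA (a beta-tubulin chaperone) at 79.9 and lowest TBCC at 14.5. Of 9 genes of the gamma-tubulin complex 3 were, highest MZT2A at 100.3 and lowest MZT1 at 26.4, and MZT2A and MZT2B, its small accessory subunits, passed 1.5 times with icLASER, at 1.02 and 1.01 on the log2 scale. TTC5, which recognises the tubulin tetrapeptide, and SCAPER, through which TTC5 brings CCR4-NOT, had no row in the tables analysed here. Of the 12 decay factors listed, 6 were in some profile and only CNOT11, a CCR4-NOT subunit, in all 4, at 14.6. The 3 non-tubulin genes whose RPKM was most like that of TUBB over the 4 profiles, by the root mean square of the log2 differences, were EEF1A1P11 (0.26), NPM1 (0.28) and NOP10 (0.29), of 3715 compared.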

How the data were processed

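The submitters' processing notes name Trimmomatic and Bowtie2. The authors aligned reads to the Ensembl release 88 transcriptome (GRCh38) and ran the icSHAPE pipeline at its defaults, apart from removing the minimums of its last filter. Per transcript they deposited an RPKM and, per nucleotide, an enrichment score of 0 to 1 (16 values lie outside 0 to 1). The 14 libraries were pooled into 4 profiles before deposit, so no read counts, depths or replicates enter here. The first 6 and last 30 nucleotides of transcripts carry no score.

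Transcripts were named by identifier from GENCODE release 44. Sequence was used where the deposited length matched the reference, as for 22 of the 33 member transcripts. For 5 MANE Select transcripts whose length differed, the position of the scores was found from their correlation with length-matched isoforms over shared genomic positions. In all 56 comparisons the best offset, with r of 0.370 to 0.963, exceeded the next, and every isoform and profile gave the same offset for a gene. The isoforms of TUBB do not hold its start codon. Its start was therefore also compared with that of TUBB4B over 24 nucleotides, where a shift of 0 gave the highest r of 13 shifts in all 4 profiles (0.488 to 0.890).

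The members and gene lists were chosen with earlier results of these data known. The named genes follow a rule: the 6 members, other tubulins held, the number held and the extremes of each list, the 3 genes most like TUBB, and 3 genes that begin AUGAGG. For RPKM the transcript of highest mean RPKM stands for a gene. For scores it is the length-matched coding transcript of highest mean RPKM that holds the start codons. This last condition, and the use of the placed MANE Select transcript for TUBB and TUBB4B, were added after the data were seen, because the length-matched TUBB models start elsewhere. Differences are in vivo minus in vitro over positions scored in both profiles. Regions needed 30 positions, a score difference was called at 0.1 and an RPKM ratio at 1.5. For scores by region, other transcripts are coding, length-matched transcripts of other genes. For RPKM ratios and for r between profiles, other transcripts were not limited in this way. With 1 pooled profile per group no test was run. Alternatives were medians, scores moved by 1 nucleotide either way, A and G alone, profiles divided by their own mean, all coding transcripts, 8 or 10 codons, thresholds of 0.3 and 0.8, a pseudocount of 1, an RPKM minimum of 10, centring on the median of all transcripts, summed transcripts, 75-nucleotide stretches, members left out and MANE Select transcripts. Scripts used Python 3.11.15, numpy 2.4.6, scipy 1.17.1 and matplotlib 3.10.9 and were tested on simulated data.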

Additional observations from a re-analysis of the deposited data

Results flagged for a closer look

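The RPKM ratio had opposite directions with the 2 reagents in 5 of the 6 mRNAs, and by the larger margins in 3 of them. On the log2 scale, in vivo over in vitro, TUBB was at 0.33 with icSHAPE and -0.30 with icLASER, TUBA1C at 0.51 and -0.25, and TUBB4B at -0.80 and 0.25. TUBB4B was thus opposite to the other 2 with each reagent. Over the first 4 codons, TUBA1A was at 0.169 with icSHAPE and -0.097 with icLASER in its representative transcript, and 3 other transcripts of the gene were higher in vivo with icLASER, at 0.128, 0.166 and 0.216. With 1 pooled profile per reagent and condition, none of these differences between reagents was tested.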

How the results depend on the processing

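No paired analysis was possible because the replicates are pooled in the deposited profiles, and for the same reason no library could be left out. The alternatives with MANE Select transcripts and with members left out were chosen after seeing the data. The median difference over the first 4 codons was -0.007 with icSHAPE, and 0.058 without TUBB and TUBB4B. With icLASER it was -0.019, and -0.072 on MANE Select transcripts. Centred on the median of all transcripts, the median log2 RPKM ratio of the members went from 0.38 to 0.25 with icSHAPE and from -0.12 to -0.23 with icLASER. The share of reactive coding nucleotides depends by construction on the limit: at 0.3 it was 18.0% and 19.6% for icSHAPE in vitro and in vivo and 17.2% and 18.0% for icLASER, and at 0.8 it was 6.94% and 6.97%, and 6.40% and 6.24%. Among differences of single genes of 0.1 or more, directions reversed for TUBG1 over the first 4 codons with icSHAPE on the MANE Select transcript, at -0.010, and for the TUBA1A icLASER ratio of RPKM, at 0.0046 on the log2 scale for that transcript. Smaller differences over the first 4 codons with icLASER also changed sign: TUBB4B from -0.041 to 0.034 over 8 codons and 0.045 over 10, and on MANE Select transcripts TUBG1 from 0.024 to -0.246 and TUBA1C from 0.080 to -0.010. Over 10 codons TUBB was at -0.068 and TUBB4B at -0.117 with icSHAPE. The sign of the icLASER median also turned, to 0.004 over 8 or 10 codons, 0.016 over all coding transcripts and 0.014 without TUBB and TUBB4B, and that of the icSHAPE median to 0.017 with medians over positions. Divided by profile means, the icSHAPE median of the coding sequence went from 0.015 to -0.015 and that of the 5′ UTR from 0.016 to -0.021. On MANE Select transcripts that 5′ UTR median was -0.007, and the icLASER coding sequence median went from 0.009 to -0.002. With A and G alone the latter was -9.1e-05. The causes were not tested. Among all values of the medians and shares over the members, 72 moved by less than 0.05 in score, 0.1 in log2 or the Wilson interval. These 72 include medians whose sign turned.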
